A study of Mus musculus with 6 samples.

Results

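The MAP kinase phosphatases of the DUSP family were followed in M2-polarized mouse macrophages after blockade of a tRNA fragment. The members were the rows of the count table named Dusp1, Dusp2, Dusp4, Dusp5, Dusp6, Dusp7, Dusp8, Dusp10 and Dusp16, which makes 9 genes of 41549 in the table, and all 9 were among the 11933 genes with enough reads to be tested. Wild type bone marrow cells of young adult C57Bl/6 N mice were grown into bone marrow-derived macrophages (BMDMs) with M-CSF. They were transfected with an antisense oligonucleotide against 5′tRF-Glu(CTC), which is cut from the leading part of a tRNA for glutamate (αGlu, n = 3 libraries), or with a control antisense (Ctr, n = 3 libraries), and then polarized with IL-4 and IL-13. All groups thus shared genotype, transfection and polarization, and no untransfected cells were part of the comparison. The study describes replicates of primary cells as preparations from different animals, so the spread within a group includes that between mice. Whether equally numbered αGlu and Ctr libraries came from the same animal is not given in the sources used here.

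MAP kinases such as ERK, JNK and p38 are active when both a threonine and a tyrosine of their activation loop carry phosphate, and these dual-specificity phosphatases remove both. DUSP1, DUSP2, DUSP4 and DUSP5 are nuclear enzymes encoded by inducible genes, DUSP6 and DUSP7 are cytoplasmic and prefer ERK, and DUSP8, DUSP10 and DUSP16 act mainly on JNK and p38. In macrophages, DUSP1 is best known as a brake on p38 and JNK during responses to bacterial products, and many of these genes are themselves switched on by the kinases that their products turn off.

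The agent that separates the groups is shown first, since every comparison rests on it. The antisense is 20 bases long and pairs with bases 2 to 21 of a target of 21 bases. This target is the sequence that the study lists for the antisense. The study describes the fragments in islet cells as longer, so the target need not be a whole fragment. Antisense and target are written 5′ to 3′ in DNA letters, with the paired bases in capitals.
antisense to 5′tRF-Glu(CTC): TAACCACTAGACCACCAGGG
target fragment: tCCCTGGTGGTCTAGTGGTTA
The coding transcripts of the members were searched for runs identical to the paired part of the target, to which the antisense could also pair. Over 11304 tested genes with a coding transcript in GENCODE M21, the longest such run had a median of 7 bases and a maximum of 13. It was 7 bases in Dusp2, Dusp5, Dusp6, Dusp10 and Dusp16, and 8 in Dusp1 and Dusp4. Dusp8 held 9, a length reached by 15.7% of genes. Dusp7 held 10, reached by 3.62%. In the members with the largest fold changes, Dusp2, Dusp5, Dusp6, Dusp10 and Dusp16, the run equalled the median. The search took no account of transcript length. Such runs are matches of letters, and no pairing was measured. Whether the antisense acted on any member directly was not tested.

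The 6 libraries held 17912831 to 30386653 reads in genes. αGlu 1 was the shallowest, and it stood apart from αGlu 2 and 3. On the first principal component, which held 76.7% of the variance, its score was -22.2, against 74.4 and 74.7 in αGlu 2 and 3 and -50.5 to -35.8 in Ctr. Results are therefore given with all 6 libraries and, beside them, without αGlu 1. That library was singled out from these same values as the αGlu library closest to Ctr. Leaving it out favours larger differences and a smaller spread. The p-values without αGlu 1 are thus descriptive and give no independent support for a difference. Macrophage markers were present, with 8 of 8 above 1 CPM on average, where CPM is the number of reads scaled to a common library size with TMM factors. Their summed level ranged from 11849 to 13404 CPM in Ctr and from 12595 to 18784 CPM in αGlu. Lyz2 alone made up 54.0% of this sum, and the markers did not all move the same way. In αGlu 2 and 3, Cd68 and Mertk lay below every Ctr library, whereas Adgre1, Csf1r, Itgam, Lyz2, Fcgr1 and Cd14 lay above. Cd68 was down to 1237 and 1144 CPM there, beside a lowest Ctr value of 1809 CPM. Cd14 was up to 293 and 240 CPM, beside a highest Ctr value of 30.1 CPM. The sum of 10 neutrophil markers was 107 to 160 CPM in Ctr and 186 to 609 CPM in αGlu, but Csf3r made up 99.0% of it, only 3 of the 10 were above 1 CPM, and Ly6g and Retnlg had no read. Csf3r stood at 102.6, 141.1 and 158.1 CPM in Ctr 1, 2 and 3, and at 183.4, 536.2 and 607.5 CPM in αGlu 1, 2 and 3. Averaged over the 6 libraries, no gene of the dendritic cell, fibroblast or mast cell and basophil lists was above 1 CPM, and in the lymphocyte list only Cd4 was. In single libraries Col1a2 reached 3.59 CPM (Ctr 1), Clec9a 1.63 CPM (Ctr 2) and Cpa3 1.55 CPM (αGlu 1). Whether Csf3r and the members share a source was not tested. In bulk RNA, fewer cells that express a gene and less RNA per cell cannot be told apart.

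Per transcript length, Dusp4 was by far the most abundant member. In the deposited TPM, which corrects for length and depth, Dusp4 stood at 126.0, 126.9 and 109.7 in Ctr 1, 2 and 3, and it made up 65.4% ± 1.65 of the summed TPM of the 9 members in Ctr (SD, n = 3). The Ctr means then followed in the order Dusp7 (24.8 ± 3.38 TPM), Dusp1 (14.8 ± 2.76), Dusp2 (9.43 ± 0.896), Dusp6 (5.68 ± 1.39), Dusp5 (3.89 ± 0.457), Dusp10 (2.76 ± 0.952), Dusp16 (2.24 ± 0.421) and Dusp8 (0.315 ± 0.172; all SD, n = 3). In this order the ranges over libraries overlapped between Dusp6 and Dusp5, between Dusp5 and Dusp10 and between Dusp10 and Dusp16, so these neighbours did not separate. The gap between Dusp4 and Dusp8 spanned more than 2 orders of magnitude.

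The order in αGlu was not the same. Dusp4 was still first with 133.6 ± 2.05 TPM and Dusp8 last with 0.368 ± 0.108 (SD, n = 3). Dusp6, with 14.2 ± 10.2 TPM, and Dusp16, with 5.19 ± 2.91, now stood ahead of Dusp2 with 4.61 ± 3.55, Dusp5 with 1.74 ± 0.425 and Dusp10 with 1.503 ± 0.195. The SDs of Dusp6, Dusp16 and Dusp2 were large because αGlu 1 was far from αGlu 2 and 3. It lay within the Ctr range for Dusp16 and Dusp2, at 1.89 and 8.70 TPM, and below it for Dusp6, at 3.18 TPM. The neighbouring ranges from Dusp7 down to Dusp2 all overlapped in αGlu. Only Dusp4 from Dusp7, Dusp2 from Dusp5 and Dusp10 from Dusp8 were separated.

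**Figure D1:**
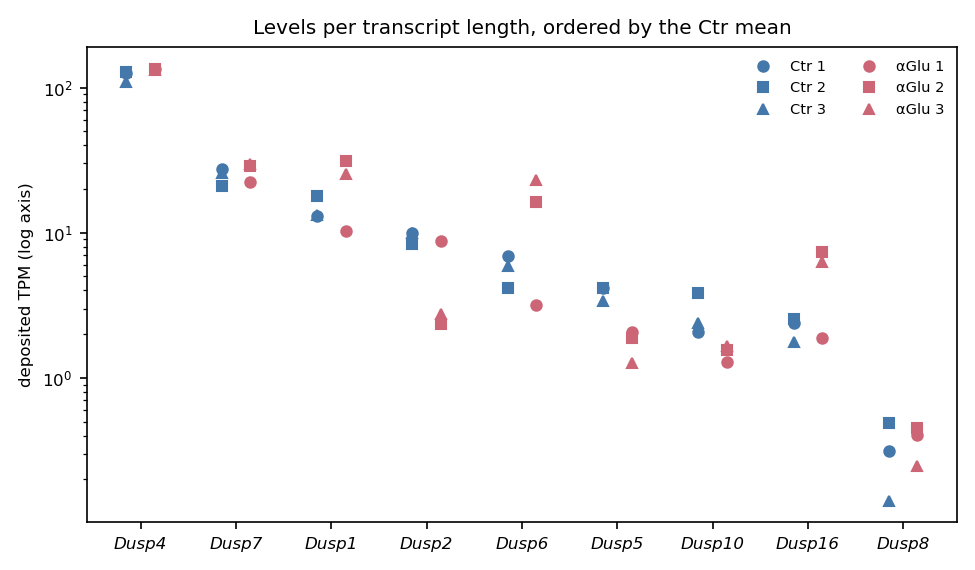
Deposited TPM of the 9 members (log axis), ordered by their Ctr mean, with 1 point per library (Ctr blue, αGlu red; circle, square and triangle are libraries 1, 2 and 3). Dusp4 lies at 109.7 TPM or above in every library, and Dusp6 and Dusp16 stand higher in αGlu 2 and 3 than in the other 4 libraries.

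The summed TPM of the family was 184.7 ± 11.0 in Ctr and 210.5 ± 21.997 in αGlu (n = 3 each, SD). αGlu 1, at 185.1 TPM, lay within the Ctr range of 172.2 to 192.5. The nuclear members summed to 149.0 ± 11.2 and 162.2 ± 7.09 TPM, mostly through Dusp4. The cytoplasmic pair summed to 30.4 ± 4.77 TPM in Ctr, and to 25.6, 45.0 and 53.2 TPM in αGlu 1, 2 and 3. The JNK and p38 phosphatases gave 5.32 ± 1.39 TPM in Ctr, and 3.58, 9.40 and 8.20 TPM in αGlu 1, 2 and 3. For both smaller groups, αGlu 2 and 3 were above every Ctr library, whereas αGlu 1 was inside the Ctr range for the cytoplasmic pair and below it for the JNK and p38 group.

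The main comparison asked which phosphatases differ in level upon blockade. A gene was called where edgeR's quasi-likelihood test gave an adjusted p under 0.1 (Benjamini-Hochberg over all 11933 genes) and the change exceeded 2-fold. By this rule 0 of 9 members were called, as were 0 of all genes (0%). At an unadjusted p under 0.05, 0 members were higher in αGlu, against 12.7% of all tested genes, and 2 members were lower, Dusp5 and Dusp10, against 11.9% of all genes. The 3 αGlu libraries all lay above the 3 Ctr libraries for 0 members and for 14.2% of all genes, and all below for 3 members, Dusp2, Dusp5 and Dusp10, and for 15.9% of all genes. The median log2 fold change of the members was 0.06, and that of all tested genes 0.02. With these few members the counts are given as a description beside the background and do not set the family apart from other genes.

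DESeq2 on all 6 libraries called 1 member, Dusp5, which was lower, where 3.93% of 13707 genes were called lower and 4.23% higher. Without αGlu 1, the quasi-likelihood test called 4 members. Dusp6 and Dusp16 were higher, against 8.05% of 12340 genes called higher, and Dusp2 and Dusp5 were lower, against 10.5% called lower. Dusp5 was thus the member that was called in both of these analyses. Without αGlu 1, the groups did not overlap for 4 members that were higher (Dusp1, Dusp6, Dusp7 and Dusp16), against 33.6% of all genes, and for 3 that were lower (Dusp2, Dusp5 and Dusp10), against 32.2%. The groups without αGlu 1 hold 2 and 3 libraries, and the common dispersion, which measures the spread between libraries, was 0.020 instead of 0.069.

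**Figure D2:**
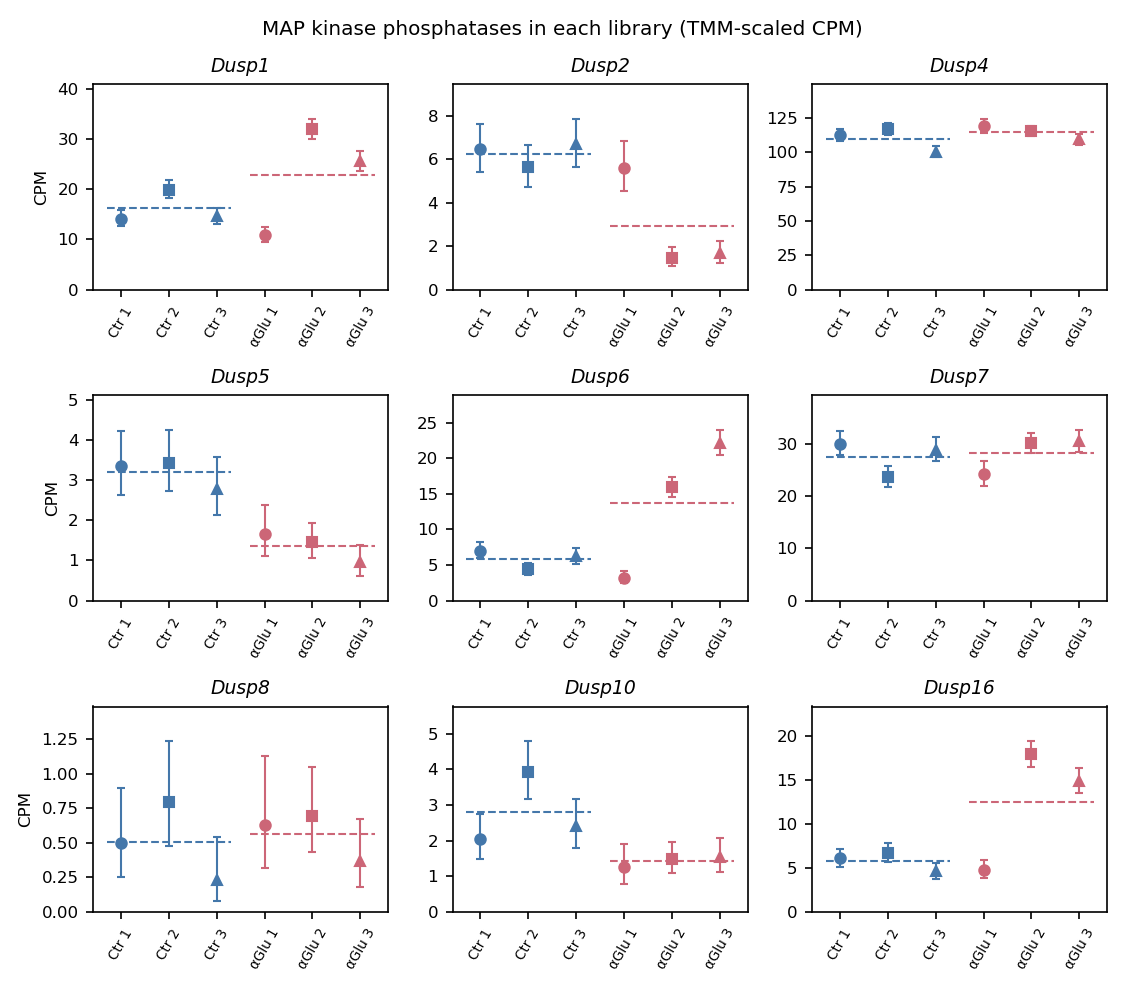
TMM-scaled CPM of each member in each library, from 0 on every vertical axis (Ctr blue, αGlu red). Bars are exact 95% Poisson intervals of the reads, which cover counting error only, and dashed lines are group means; Dusp5 and Dusp10 are lower in all 3 αGlu libraries, and Dusp6, Dusp16 and Dusp1 are higher in αGlu 2 and 3 only.

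Dusp5, the nuclear phosphatase that is specific for ERK, was lower in every αGlu library. It stood at 3.36, 3.43 and 2.78 CPM in Ctr 1, 2 and 3, and at 1.66, 1.45 and 0.954 CPM in αGlu 1, 2 and 3, from 60 to 82 and 26 to 46 reads per library. The highest αGlu value was below the lowest Ctr value, and this held for CPM by library size alone, TPM and RPKM as well. Its log2 fold change was -1.24 ± 0.27 (SE), with a quasi-likelihood adjusted p of 0.152 and an unadjusted p of 0.00337. DESeq2 gave -1.26 at an adjusted p of 0.00336, and without αGlu 1 edgeR gave -1.40 ± 0.28 at an adjusted p of 0.00954. The lowest and highest adjusted p among the alternatives were 0.00336 and 0.427.

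Dusp2, an inducible phosphatase of immune cells, differed mainly in αGlu 2 and 3. It had 6.45, 5.64 and 6.68 CPM in Ctr 1, 2 and 3, and 5.62, 1.48 and 1.69 CPM in αGlu 1, 2 and 3. αGlu 1 was only just below Ctr 2, so the lack of overlap rested on a difference far smaller than the counting error, and the groups overlapped with library size alone, TPM and RPKM. Its log2 fold change was -1.12 ± 0.53 (SE, quasi-likelihood adjusted p 0.242). Without αGlu 1 it was -1.99 ± 0.19 at an adjusted p of 0.000578, and the Ctr mean was then 3.95 times the αGlu mean. Over the alternatives the adjusted p lay between 0.000578 and 0.531.

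Dusp1, the immediate-early brake on p38 and JNK, did not separate. It had 14.1, 19.9 and 14.6 CPM in Ctr 1, 2 and 3, and 10.9, 32.0 and 25.6 CPM in αGlu 1, 2 and 3, so αGlu 1 was the lowest of all 6 libraries and αGlu 2 and 3 the highest. The log2 fold change was 0.50 ± 0.39 (SE, quasi-likelihood adjusted p 0.433). Without αGlu 1 it was 0.82 ± 0.18 at an adjusted p of 0.0123, which passed the threshold on p but not the limit of 2-fold.

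Dusp4, a nuclear phosphatase of ERK and JNK and the main member here, was nearly level. Its 112.2, 116.7 and 100.5 CPM in Ctr 1, 2 and 3 overlapped with 119.2, 115.2 and 109.4 CPM in αGlu 1, 2 and 3. It had 2078 to 3660 reads per library, and the log2 fold change of 0.06 ± 0.09 (SE) had a 95% interval of -0.16 to 0.28 (quasi-likelihood adjusted p 0.671). In TPM, RPKM and CPM by library size alone, all 3 αGlu libraries were above all 3 Ctr libraries, so this small difference depended on the scaling.

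Dusp6, the cytoplasmic ERK phosphatase that ERK signalling itself induces, varied most among the members. It had 7.04, 4.39 and 6.22 CPM in Ctr 1, 2 and 3. In αGlu 1 it had 3.21 CPM, the lowest value of all, and in αGlu 2 and 3 it had 15.9 and 22.2 CPM. αGlu 2 and 3 averaged 3.24 times the Ctr mean and αGlu 1 was at 0.546 of it. Over all libraries, the log2 fold change was 1.23 ± 0.65 (SE, quasi-likelihood adjusted p 0.273), and without αGlu 1 it was 1.69 ± 0.23 at an adjusted p of 0.00200. The adjusted p ranged from 0.00200 to 0.624 over the alternatives.

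Dusp7, which also acts on ERK in the cytoplasm, did not follow Dusp6. It had 30.0, 23.7 and 28.9 CPM in Ctr 1, 2 and 3, and 24.3, 30.1 and 30.6 CPM in αGlu 1, 2 and 3. The log2 fold change was 0.04 ± 0.14 (SE, 95% interval -0.29 to 0.37, quasi-likelihood adjusted p 0.858). The sign of this value was not stable when libraries were left out. αGlu 1 was again below αGlu 2 and 3, but within the Ctr range.

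Dusp16, a phosphatase of JNK and p38, was higher in αGlu 2 and 3 only, as was Dusp6. Ctr 1, 2 and 3 had 6.09, 6.69 and 4.59 CPM, and αGlu 1, 2 and 3 had 4.76, 17.97 and 14.9 CPM. αGlu 1 lay inside the Ctr range, and αGlu 2 and 3 averaged 2.84 times the Ctr mean. Its log2 fold change was 1.12 ± 0.48 (SE, quasi-likelihood adjusted p 0.212). It was 1.50 ± 0.18 at an adjusted p of 0.00118 without αGlu 1, and the alternatives gave adjusted p-values of 0.00118 to 0.513.

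Dusp10, the other JNK and p38 phosphatase with more than a trace of reads, was lower in every αGlu library. It had 2.04, 3.93 and 2.41 CPM in Ctr 1, 2 and 3, and 1.26, 1.48 and 1.54 CPM in αGlu 1, 2 and 3. The αGlu values were close together and all below Ctr on each of the scales, while Ctr 2 was well above the other Ctr libraries. The log2 fold change of -0.96 ± 0.30 (SE) had a quasi-likelihood adjusted p of 0.162 and an unadjusted p of 0.0190. Without αGlu 1 it was -0.89 ± 0.34 at an adjusted p of 0.0844, short of 2-fold, and DESeq2 gave an adjusted p of 0.0739.

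Dusp8, better known from brain and heart, was close to the limit of detection. Its 5 to 22 reads per library came to 0.4997, 0.794 and 0.232 CPM in Ctr 1, 2 and 3, and to 0.631, 0.693 and 0.367 CPM in αGlu 1, 2 and 3. Every αGlu value lay within the Ctr range. The log2 fold change was 0.13 ± 0.52 (SE, quasi-likelihood adjusted p 0.879), with a 95% interval of -1.13 to 1.39, so a 2-fold difference in either direction could not be told from none at this depth.

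**Figure D3:**
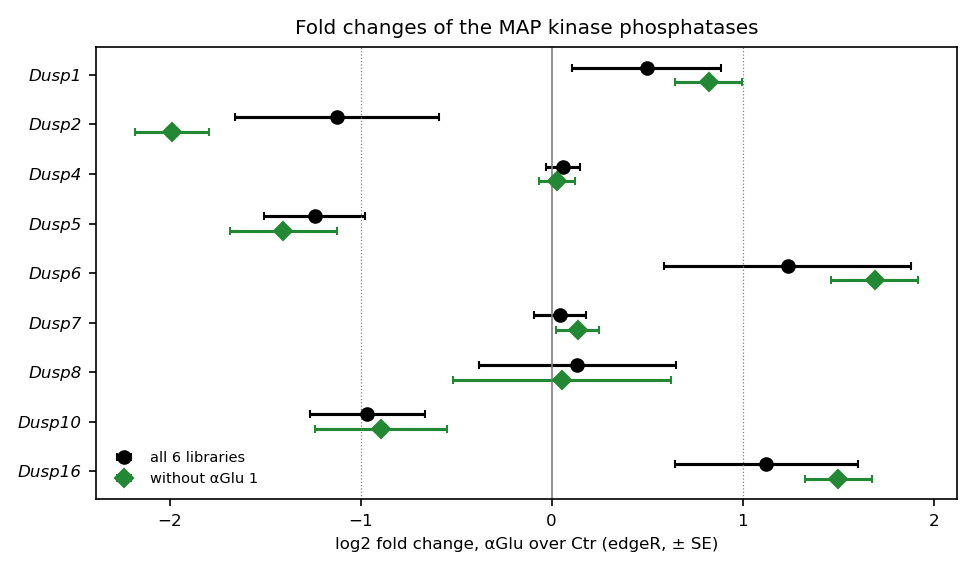
Log2 fold change of each member, αGlu over Ctr, with its standard error (edgeR quasi-likelihood), for all 6 libraries (black circles) and without αGlu 1 (green diamonds). Dotted lines mark 2-fold; Dusp2, Dusp6 and Dusp16 move outward without αGlu 1, and their errors shrink, whereas Dusp5 and Dusp10 stay close to their values with all libraries.

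The members therefore took 3 shapes across the libraries. Dusp5 and Dusp10 were lower in all 3 αGlu libraries. Dusp1, Dusp6 and Dusp16 were higher and Dusp2 lower in αGlu 2 and 3, with αGlu 1 near Ctr or beyond it. Dusp4, Dusp7 and Dusp8 showed no change that passed any test here. The likeness of 2 members was measured as the root-mean-square difference of their log2 CPM over the 6 libraries, each centred on its own mean. The most alike pair was Dusp4 and Dusp7, at 0.207, followed by Dusp1 and Dusp16 at 0.331, Dusp5 and Dusp10 at 0.427, Dusp4 and Dusp8 at 0.430 and Dusp6 and Dusp16 at 0.455. Dusp2 and Dusp6 were farthest apart, at 1.81.

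The same measure over 8695 genes of moderate or high level (mean log2 CPM of at least 3) gave the genes most like the 3 most variable members. Nearest to Dusp6 were Ust, which encodes a uronyl sulfotransferase, at 0.0978, and Aldoc, the glycolytic aldolase C, at 0.195, and these were the only 2 genes within 0.2. Ust had 11.6, 6.73 and 10.7 CPM in Ctr 1, 2 and 3, and 5.39, 28.3 and 42.1 CPM in αGlu 1, 2 and 3, so it shared the low value of αGlu 1 and the higher value of αGlu 3 over αGlu 2. Nearest to Dusp16 were Sh2b2, an adaptor of receptor tyrosine kinases, at 0.101, and Sh3bp4, which takes part in endocytosis, at 0.124, with 20 genes within 0.2. Nearest to Dusp2 were Bcl2l11, which encodes the pro-apoptotic protein BIM, at 0.0730, and Aplp2, of the amyloid precursor family, at 0.0761, with 53 genes within 0.2. Bcl2l11 had 164.0, 161.8 and 173.8 CPM in Ctr 1, 2 and 3, and 160.9, 42.9 and 44.7 CPM in αGlu 1, 2 and 3. As for Dusp2, αGlu 1 was just under the Ctr range.

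The letters before the RefSeq starts of these genes were compared, because some members moved together. RefSeq (build GRCm38.p6) gave a window for 8 members, and Dusp4 had none. The starts of RefSeq and GENCODE differ for some members. The windows of Dusp1, Dusp8 and Dusp10 lie inside the spans that GENCODE gives these genes, and that of Dusp5 reaches past its GENCODE start. Windows of 250 bases before the start were searched on both strands for the cAMP response element TGACGTCA, the AP-1 site TGANTCA, the E-box CACGTG, the GC box GGGCGG, the TATA box TATAAA, the ETS site CCGGAAGT, the general STAT site TTCNNNGAA, and the STAT6 site, the CArG box of serum response factor and the NF-κB site by their usual consensus. The GC box was in 6 of the 8 windows (32.7% of all 32851 windows), and the GC content of the 8 was 56.4% to 77.2%, against a median of 52.4% over all. The cAMP response element was in Dusp1 and Dusp8 (1.55% of all windows) and the E-box in Dusp1 and Dusp2 (6.02%). The CArG box was in Dusp5 alone, which held 2 copies (1.47%). The letters of the AP-1 site (6.75%), TATA box (12.4%), ETS site (2.88%), STAT site (7.02%), STAT6 site (5.85%) and NF-κB site (3.90%) were found in none of the 8 windows. Dusp6 and Dusp7 held none of the motifs searched.

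The following stretches run 5′ to 3′ on the strand of the gene, from 150 to 51 bases before the start, for the members that differed in αGlu 2 and 3 or in all αGlu libraries. Capitals mark the cAMP response element, E-box, GC box and CArG box in either orientation. The stretch of Dusp16 begins inside a GC box. None of these bases lies in a GENCODE exon of the gene. The stretches of Dusp1 and Dusp10 nevertheless lie inside the GENCODE span of their gene.
Dusp1 (chr17:26508523-26508622, minus strand): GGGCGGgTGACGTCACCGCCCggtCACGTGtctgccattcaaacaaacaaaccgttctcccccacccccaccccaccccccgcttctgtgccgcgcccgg
Dusp2 (chr2:127336009-127336108, plus strand): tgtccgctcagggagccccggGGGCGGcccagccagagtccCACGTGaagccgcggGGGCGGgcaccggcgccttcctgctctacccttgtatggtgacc
Dusp5 (chr19:53528995-53529094, plus strand): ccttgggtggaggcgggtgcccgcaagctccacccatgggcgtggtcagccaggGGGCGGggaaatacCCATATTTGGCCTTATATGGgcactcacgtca
Dusp6 (chr10:99263081-99263180, plus strand): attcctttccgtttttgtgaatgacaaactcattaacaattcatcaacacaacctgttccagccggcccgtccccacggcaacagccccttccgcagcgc
Dusp10 (chr1:184034231-184034330, plus strand): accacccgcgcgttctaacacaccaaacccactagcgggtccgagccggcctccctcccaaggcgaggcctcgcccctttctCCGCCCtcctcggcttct
Dusp16 (chr6:134792679-134792778, minus strand): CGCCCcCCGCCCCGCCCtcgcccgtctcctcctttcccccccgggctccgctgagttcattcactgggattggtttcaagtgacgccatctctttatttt
In Dusp1 the cAMP response element stands between a GC box on each side, and an E-box follows. In Dusp5 both CArG boxes lie side by side, at 82 and 72 bases before the start. Dusp6 and Dusp16, at a root-mean-square difference of 0.455, shared no motif of this set in the stretches shown. Dusp1 with Dusp16 (0.331) and Dusp5 with Dusp10 (0.427) were more alike and shared the GC box. Dusp2 with Dusp16 (1.65) and Dusp1 with Dusp2 (1.38) shared it too and were among the least alike pairs. Dusp1 and Dusp2 also shared the E-box. The GC box was in 6 of the 8 windows. A match is a run of letters, and no binding was measured in these libraries.

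The genes themselves lie on 9 chromosomes. In GENCODE M21 (GRCm38, the build named in the submitters' processing notes) Dusp1 spans chr17:26505590-26562128 on the minus strand, Dusp2 chr2:127336159-127338376 on the plus strand, Dusp4 chr8:34807297-34819894 (plus) and Dusp5 chr19:53529109-53542431 (plus). Dusp6 spans chr10:99263231-99267489 (plus) and Dusp7 chr9:106368632-106375724 (plus). Dusp8 spans chr7:142079490-142095843 (minus), Dusp10 chr1:184013302-184075636 (plus) and Dusp16 chr6:134715468-134792625 (minus). Their longest coding transcripts have 3 exons in Dusp6 and Dusp7, 4 in Dusp1, Dusp2, Dusp4, Dusp5 and Dusp10, and 7 in Dusp8 and Dusp16. Those transcripts run from 1617 bases in Dusp2 to 5104 in Dusp16, which is why TPM and not CPM was used to order the members.

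The kinases, scaffolds and inhibitors around the phosphatases were taken from 8 lists of 94 genes. Of these, 93 were in the deposited data and 74 were tested, and 0 were called by edgeR's quasi-likelihood test with all libraries. At an unadjusted p under 0.05, 10 were higher and 10 lower, and without overlap between groups 8 were higher and 13 lower. These counts equal 20 and 21 of 74 genes, beside 12.7% and 11.9%, and 14.2% and 15.9%, of all tested genes in the respective directions. DESeq2 called 3 higher and 1 lower of 75 pathway genes, beside 4.23% and 3.93% of all genes. Without αGlu 1, 6 were called higher and 8 lower of 75, beside 8.05% and 10.5% of all genes, so these shares were near the background.

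**Figure D4:**
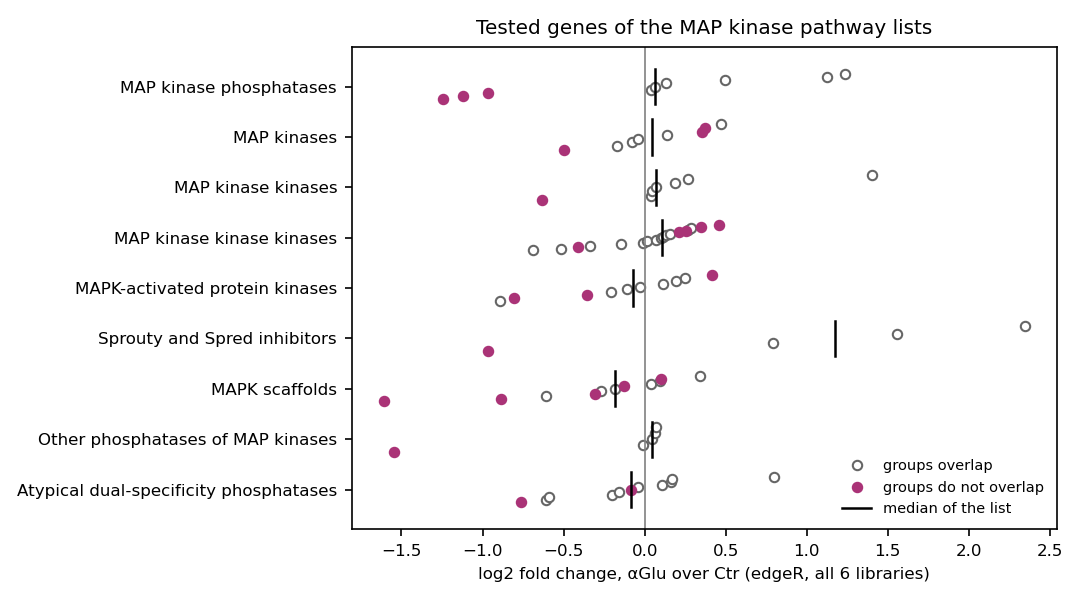
Log2 fold change (edgeR, all 6 libraries) of each tested member and of the 74 tested genes of the 8 pathway lists, 1 point per gene; filled points are genes whose groups do not overlap, and the black bar is the median of the list. The medians of the kinase lists lie near 0, and the Sprouty and Spred list has the widest spread, from -0.97 to 2.35.

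Among the MAP kinases, 8 of 14 were tested, with a median log2 fold change of 0.05. Mapk3 (ERK1) was lower without overlap, with 238.5, 230.7 and 221.5 CPM in Ctr 1, 2 and 3 against 204.3, 146.9 and 138.0 CPM in the αGlu libraries (log2 fold change -0.50 ± 0.17, SE, quasi-likelihood adjusted p 0.168). Mapk8 (JNK1) and Nlk were higher without overlap, at 0.37 ± 0.14 and 0.36 ± 0.09 (log2 fold change, SE). For Mapk8, αGlu 1 (14.5 CPM) was only just above the highest Ctr value (14.1 CPM), and αGlu 2 and 3 had 19.6 and 19.5 CPM. These 3 kinases differed by less than 2-fold between groups. Mapk11, which encodes p38β, had 2 to 6 reads in each Ctr library and in αGlu 1, and 37 and 50 reads in αGlu 2 and 3. The low-count filter removed it from the quasi-likelihood test of all 6 libraries. DESeq2 called it on all 6 libraries (log2 fold change 2.69 ± 1.05, SE, adjusted p 0.0786), and the quasi-likelihood test called it without αGlu 1 (3.16 ± 0.48, adjusted p 0.00316). It was named after its values were seen.

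Of the kinases above them, 7 MAP kinase kinases had a median of 0.07 and 18 MAP kinase kinase kinases a median of 0.11. Map2k3, which activates p38, was lower without overlap, at 68.4, 77.3 and 70.5 CPM in Ctr 1, 2 and 3 against 56.6, 41.9 and 41.2 CPM in the αGlu libraries (log2 fold change -0.63 ± 0.14, SE). Map2k6, the other activator of p38, went the other way in αGlu 2 and 3, with 3.97 and 2.97 CPM, against 0.688 CPM in αGlu 1 and 0.710 to 1.35 CPM in Ctr. Map2k6 was named after its values were seen, and it was called without αGlu 1 only. Map3k5, likewise named after its values were seen, was lower in αGlu 2 and 3, at 5.48 and 4.99 CPM. It had 10.4 CPM in αGlu 1 and 9.78 to 11.9 CPM in Ctr, and it too was called without αGlu 1 only. Map3k14 (NIK) and Braf were higher without overlap, at 0.46 ± 0.10 and 0.35 ± 0.12, and Map3k11 was lower, at -0.41 ± 0.14 (log2 fold change, SE).

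Kinases that act below the MAP kinases showed a median of -0.07 (log2 fold change, 10 genes tested). Mapkapk2, a p38 substrate that stabilizes cytokine mRNAs, was higher without overlap, at 0.42 ± 0.15 (log2 fold change, SE). Rps6ka3 (RSK2) and Mknk1, both downstream of ERK, were lower without overlap, at -0.81 ± 0.30 and -0.35 ± 0.14. Rps6ka3 was at 221.2, 197.9 and 181.8 CPM in Ctr 1, 2 and 3 but at 171.5, 86.3 and 85.6 CPM in the αGlu libraries. αGlu 1 was again close to Ctr. Rps6ka2 was named after its values were seen. It had 73.3, 103.5 and 69.1 CPM in Ctr 1, 2 and 3, and 90.6, 27.2 and 15.2 CPM in the αGlu libraries. It was called lower without αGlu 1 only (log2 fold change -1.95 ± 0.29, SE).

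The Sprouty and Spred inhibitors, which dampen the Ras to ERK route upstream, had the largest median of the 8 lists, 1.17 over 4 tested genes. Spry2 was lower without overlap, with 3.36, 2.05 and 2.41 CPM in Ctr 1, 2 and 3 against 1.66, 1.26 and 1.10 CPM in the αGlu libraries (log2 fold change -0.97 ± 0.29, SE, quasi-likelihood adjusted p 0.160). The Spred genes, described after their values were seen, overlapped between groups. Like Dusp6 and Dusp16, they were higher in αGlu 2 and 3 than in αGlu 1 and every Ctr library. Without αGlu 1, 33.6% of all genes were higher in αGlu with no overlap. Neither Spred1 nor Spred2 was within 0.2 of Dusp6 by the root-mean-square measure. Spred3 had 0.999, 1.003 and 1.48 CPM in Ctr 1, 2 and 3, 1.09 CPM in αGlu 1, and 8.25 and 8.29 CPM in αGlu 2 and 3. Spred2 had 10.2, 6.27 and 6.96 CPM in Ctr 1, 2 and 3, 5.39 CPM in αGlu 1, and 32.1 and 31.0 CPM in αGlu 2 and 3. Spred1 had 51.4 to 67.7 CPM in Ctr, 54.0 CPM in αGlu 1, and 120.6 and 142.6 CPM in αGlu 2 and 3. All 3 had a quasi-likelihood adjusted p of 0.162 to 0.225 with all libraries and of 0.000261 to 0.00157 without αGlu 1. DESeq2 called Spred2 and Spred3 on all libraries.

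**Figure D5:**
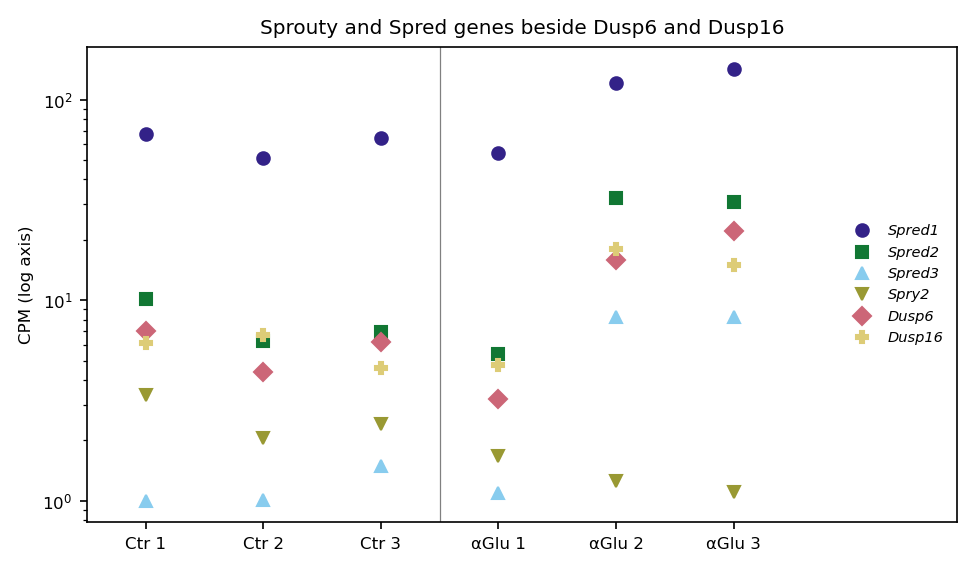
TMM-scaled CPM (log axis) of the 4 tested Sprouty and Spred genes beside Dusp6 and Dusp16, 1 point per gene and library; the vertical line separates Ctr from αGlu. All but Spry2 are higher in αGlu 2 and 3 than in the other 4 libraries, and Spry2 is lower in every αGlu library.

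The scaffolds had a median of -0.18 over 11 tested genes. Mapk8ip1 (JIP1), which holds the JNK cascade together, was lower without overlap, at 2.499, 2.22 and 1.62 CPM in Ctr 1, 2 and 3 against 0.459, 0.913 and 0.660 CPM in αGlu 1, 2 and 3, in turn (log2 fold change -1.61 ± 0.33, SE). This was the smallest quasi-likelihood adjusted p of the pathway genes, 0.149, and DESeq2 called it at an adjusted p of 0.00406. All 3 αGlu libraries were at less than the lowest Ctr value, and αGlu 1 was the lowest. Pea15a, which keeps ERK in the cytoplasm, was lower too, from 432.9 to 472.9 CPM in Ctr and 364.5, 185.4 and 196.3 CPM in αGlu 1, 2 and 3 (-0.88 ± 0.28). Shoc2 differed by 0.10 ± 0.07.

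The remaining phosphatases held 1 more gene of the same enzyme family. Dusp9, an ERK phosphatase best known from placenta, was low, at 3.73, 3.05 and 2.32 CPM in Ctr 1, 2 and 3 and 2.06, 0.850 and 0.293 CPM in αGlu 1, 2 and 3, without overlap (log2 fold change -1.55 ± 0.65, SE, quasi-likelihood adjusted p 0.209). The 5 tested phosphatases of its list had a median of 0.04. Among 11 tested atypical dual-specificity phosphatases, with a median of -0.08, Dusp3, which also acts on ERK and JNK, was lower without overlap, at 266.5, 244.7 and 226.3 CPM in Ctr 1, 2 and 3 and 190.0, 124.6 and 119.8 CPM in αGlu 1, 2 and 3 (-0.76 ± 0.20, quasi-likelihood adjusted p 0.156). Dusp11, which acts on RNA, differed by -0.08 ± 0.07.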

How the data were processed

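Total RNA of 6 libraries was purified by the study and sequenced as stranded mRNA. Read processing by the authors took place in QIAGEN RNA-seq Analysis Portal 5.1, on GRCm38 per the labels; aligner and annotation are not given in the sources used here. The deposited counts are whole reads per gene, without normalization. The deposited RPKM and TPM values are scaled by the authors for length and depth; TPM served for levels between genes, RPKM as an alternative. A further 6 deposited columns of the authors' CPM were not used.

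Groups came from the library names in the labels. Members and lists were chosen with earlier results of these data known. edgeR 4.0.16 in R 4.3.3 was used: filterByExpr (minimum count 10, minimum total 15), TMM factors, a quasi-likelihood model on all 11933 genes with group as its term, two-sided, Benjamini-Hochberg adjusted. SEs were derived from the F statistic. Exact permutation p-values, at least 0.1 in this design, were not used. Every pair of libraries differed by more than sampling noise (chi-square per gene at least 15.2). The fit was checked on simulated data with a smaller dispersion than the 0.069 of the 6 libraries. That check does not show what the test recovers at the spread of these data. Named were all members, up to 2 rises and 2 falls without overlap in each pathway list, and for the 3 most variable members the 2 genes of most like profile (log2 CPM with a prior count of 2). Alternatives were DESeq2 1.42.0, limma-voom (limma 3.58.1), library size alone, upper-quartile and RLE factors, other filters, thresholds and prior counts, the replicate block and each library left out. For 1 gene of the pathway lists, the values are not reported here.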

Additional observations from a re-analysis of the deposited data

How the results depend on the processing

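The number of called members was 0 with all 6 libraries and also with library size alone, upper-quartile or RLE factors, both other filters, limma-voom, an adjusted p under 0.05 and no fold limit. DESeq2 called 1 member and 4 pathway genes. Leaving out 1 library gave 0 to 4 called members and 0 to 14 called pathway genes, with 4 and 14 only without αGlu 1, where fewer libraries and a smaller spread entered. Members without overlap numbered 3 to 7 (7 without αGlu 1, where 33.6% of all genes were higher and 32.2% lower without overlap), and pathway genes without overlap 24 to 50 against 21 with all libraries (32 without Ctr 3, 50 without αGlu 1); fewer libraries make a lack of overlap easier. Signs turned for members near 0 when 1 library was left out, where log2 fold changes ranged from -0.0012 to 0.10 for Dusp4, from -0.062 to 0.14 for Dusp7 and from -0.21 to 0.61 for Dusp8. The labels do not say that equal numbers pair libraries, and deviations of same-numbered libraries correlated at 0.076, 0.065 and 0.154. Those of differently numbered libraries correlated at -0.112 to 0.046, lower than each of these. The main fit held no pairing term. With the replicate block, 0 members and 0 pathway genes were called, and the block changed no other call. Depth limits Dusp8 most, with 5 to 22 reads per library.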
